A study of Mus musculus with 4 samples.

Results

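The peptide and amino acid transporters examined here are 10 of the 21554 genes counted in the deposited data. They were chosen by gene symbol as carriers that take peptides and amino acids across the epithelium of the gut. All 10 were found and had at least 20 reads in each pair of libraries compared. The data come from 4 libraries of frozen total tissue of C57BL/6 mice aged 9 to 10 weeks. The study names the tissues as jejunum, for small intestine, and distal colon. One pair, small intestine and colon, was cDNA fragmented, that is, made from polyadenylated RNA by SMART cDNA synthesis and sequenced without strand information. The other pair was labelled as depleted of ribosomal RNA and made with a directional kit that fragments the RNA itself. The methods of the study name polyadenylated RNA as the input of this kit. However, the rRNA-depleted pair had 36419942 total reads in small intestine and 37466674 in colon, fewer than the study lists for its RNA fragmented libraries. The totals of the cDNA pair, 77504263 and 83302412, equal those listed. The rRNA-depleted pair is thus not the RNA fragmented data set as listed in the study. Whether the input and tissue regions named there hold for this pair is not given in the sources used here. Neither pair carries a treatment or an altered gene, and how many mice stand behind a library is not given in the sources used here. The study describes both tissues as taken from shared mice, without naming the libraries for which this holds. In the cDNA pair the sex-linked reads given below are not those of shared mice. Each tissue and protocol is represented by 1 library, so neither protocol holds a replicate error of its own. No test between tissues was run and no p-value is given. Intervals are at the 95% level. They describe the error of counting alone, as does the floor of 3 reads set for a count of 0, because several reads can be copies of 1 amplified molecule.

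Dietary protein reaches the absorptive cells of the gut as free amino acids and short peptides. Carriers in the brush border, which faces the lumen, take them up with sodium or protons or in exchange for other amino acids, and exchangers and uniporters in the basolateral membrane pass them on to the blood. Several of these carriers are heterodimers of a light chain that forms the path and a heavy chain that brings it to the membrane, and absorption of amino acids is known above all for the small intestine.

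The level of a gene is given as RPKM, the reads per kilobase of its exons per 1000000 uniquely placed reads of the library. Following the study, a gene was called higher in a tissue when its RPKM there was at least 3 times the RPKM of the other tissue plus 1. Under this rule 8 of the 10 genes were higher in small intestine in both protocols: Slc15a1, Slc6a19, Slc6a20a, Slc7a9, Slc3a1, Slc7a7, Slc7a8 and Slc1a1. Slc6a14 was higher in colon in both, and Slc36a1 passed the rule in neither direction. Of all genes with at least 20 reads in the pair, the rule called 3.14% higher in small intestine and 3.69% higher in colon by cDNA fragmentation, and 4.32% and 7.77% in the rRNA-depleted pair. These shares depend on the scaling. With median-of-ratios size factors the order of the tissues was turned, at 594 genes higher in small intestine and 355 in colon by cDNA (455 and 535 before) and 714 and 609 in the rRNA-depleted pair (525 and 943 before). With the reads of Epcam and Cdh1 as library size the balance moved further towards colon, to 324 and 1014 genes by cDNA and 435 and 1283 in the rRNA-depleted pair. In both protocols at once it called 2.47% higher in small intestine and 2.68% higher in colon. The median log2 ratio of small intestine to colon over the 10 genes, with 0.1 RPKM added, was 3.86 by cDNA fragmentation and 2.90 in the rRNA-depleted pair, beside -0.37 and -0.40 over all genes with as many reads. The 10 genes were chosen with earlier results of these data known, so their contrast with all genes is a description only.

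**Figure D1:**
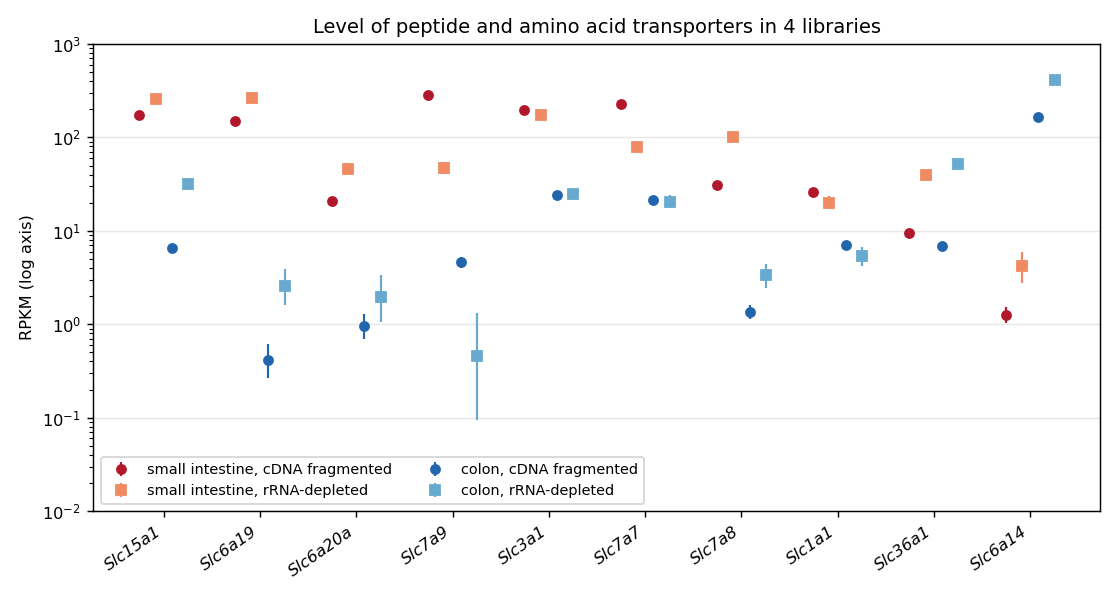
RPKM (log axis) of the 10 transporters in the 4 libraries, 1 point per library with its exact Poisson interval, which covers counting error only. Red and orange points (small intestine) lie above the blue ones (colon) for the first 8 genes from the left. For Slc36a1 the points of both tissues lie close together within each protocol, and for Slc6a14 the order is turned, at 167 and 413 RPKM in colon and 1.27 and 4.15 in small intestine.

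The samples stood apart in ways that touch these values. By cDNA fragmentation 22484041 reads of small intestine and 24798934 reads of colon were uniquely placed, whereas the rRNA-depleted libraries, with 2035386 and 3478387, are less precise. These were 29.0% and 29.8% of all reads by cDNA, and 5.59% and 9.28% in the rRNA-depleted pair. Most reads of that pair were thus not used, and the share kept differed between its tissues. All 7 enterocyte markers were higher in small intestine in both protocols, with ratios from 8.52 (Fabp2) to 4636 (Apoa4) by cDNA and from 8.05 (Fabp2) to 130 (Anpep) in the rRNA-depleted pair. They summed to 42129 and 4452 RPKM in small intestine and colon by cDNA, of which Fabp2 alone gave 37853 and 4441, and to 11339 and 520 in the rRNA-depleted pair. The 4 markers of proximal small intestine were higher in small intestine, as most of the transporters were, at sums of 13541 and 5.06 RPKM by cDNA, of which Fabp1 gave 13431 and 4.75, and of 1133 and 10.8 in the rRNA-depleted pair, and Cybrd1 was the member called in neither. The 3 Paneth cell markers were so too, at 6496 and 58.8 RPKM by cDNA and 1742 and 51.9 in the rRNA-depleted pair, mostly from Lyz1, and Pla2g2a was not called in the latter. Of 4 markers of distal small intestine 2 were found. Fabp6, known from ileum, was at 1185 and 32.4 RPKM by cDNA and at 311 and 5.20 in the rRNA-depleted pair, although the tissue is named as jejunum, and Slc10a2 had its higher values in colon (13.3 and 29.0, and 49.2 and 102 RPKM) without passing the rule. The 6 colonocyte markers summed to 399 and 56042, and to 123 and 7276, of which Car1 gave 52340 and 5915 in colon, with 0 reads in the cDNA fragmented small intestine library. The 5 markers of epithelium shared by both tissues summed to 9193 and 3771 RPKM by cDNA, of which Krt20 gave 7525 and 2503, and to 3297 and 3472 in the rRNA-depleted pair. They did not share a direction, since Krt8 was higher in colon in both protocols and Cdh1 by cDNA, whereas Vil1, Epcam and Krt20 were higher in small intestine in both. The 5 smooth muscle markers summed to 288 RPKM in small intestine and 1244 in colon by cDNA, and to 220 and 1930 in the rRNA-depleted pair. The 3 leukocyte markers summed to 47.4 and 15.9 RPKM by cDNA, where Ptprc (ratio 4.17) and Cd3e (10.7) passed the 3-fold rule towards small intestine, as most of the transporters did, and to 24.0 and 17.8 in the rRNA-depleted pair. The 12 pancreatic acinar markers summed by cDNA to 345 RPKM in small intestine and to 1298 in colon, and to 3996 and 313 in the rRNA-depleted pair. By cDNA 10 of them were higher in colon, Clps was higher in small intestine (325 and 148 RPKM) and made up most of the sum there, and Cpa1, Cela3b, Pnlip and Prss2 were at 0 reads in small intestine. Amy2a5 was at 0 reads in all 4 libraries, and the other 11 were higher in small intestine in the rRNA-depleted pair. The cDNA pair also differed in sex-linked genes. Its small intestine library had no read of the Y-linked genes Eif2s3y, Kdm5d and Uty, which the other 3 libraries held, 19 reads of Ddx3y, also Y-linked, against 992 in colon, and 1747 reads of Xist against 29. The part of these differences in the transporter ratios was not tested, and in the cDNA pair tissue cannot be told apart from sex or animal. In total tissue, fewer cells of a type and less RNA per cell cannot be told apart.

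Promoters of 4 genes are shown as examples: Slc15a1, the peptide carrier, Slc3a1 and Slc6a20a, picked for their matches to the motifs searched, and Slc6a14, the gene called higher in colon. Each is the RefSeq promoter of assembly GRCm38.p6, 250 bases before and 50 after the start, and each matched mm9 exactly once. The mm9 positions given here come from that match, and the sequence is written 5' to 3' on the strand of the gene. Capitals mark the motifs searched on both strands. The TATA box was searched as TATAAA. The letters taken for the liver and gut factor HNF1 were GTTAAT, which is a part of its full site. For the factor HNF4 the core CAAAGTCCA was used. The GATA factors were read from AGATAA. For the CDX factors the letters were TTTATG.
Slc15a1, chr14:121904427-121904726, minus strand: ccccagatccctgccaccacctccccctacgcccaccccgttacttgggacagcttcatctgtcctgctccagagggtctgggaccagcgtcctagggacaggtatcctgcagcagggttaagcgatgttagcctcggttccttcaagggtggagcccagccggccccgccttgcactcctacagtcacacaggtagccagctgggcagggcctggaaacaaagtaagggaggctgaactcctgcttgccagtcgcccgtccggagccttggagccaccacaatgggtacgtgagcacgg
Slc3a1, chr17:85427437-85427736, plus strand: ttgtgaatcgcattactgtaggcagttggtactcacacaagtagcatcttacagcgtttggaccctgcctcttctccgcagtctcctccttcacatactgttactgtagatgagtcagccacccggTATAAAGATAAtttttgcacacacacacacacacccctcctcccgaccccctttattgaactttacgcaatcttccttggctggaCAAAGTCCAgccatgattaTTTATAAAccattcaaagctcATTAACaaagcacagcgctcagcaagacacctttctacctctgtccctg
Slc6a20a, chr9:123587901-123588200, minus strand: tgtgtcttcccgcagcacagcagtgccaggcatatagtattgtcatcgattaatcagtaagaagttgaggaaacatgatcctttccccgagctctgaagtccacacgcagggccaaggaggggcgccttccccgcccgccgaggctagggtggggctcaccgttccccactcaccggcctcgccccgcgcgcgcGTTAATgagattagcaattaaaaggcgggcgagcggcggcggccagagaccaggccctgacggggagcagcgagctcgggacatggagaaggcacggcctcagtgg
Slc6a14, chrX:21291776-21292075, plus strand: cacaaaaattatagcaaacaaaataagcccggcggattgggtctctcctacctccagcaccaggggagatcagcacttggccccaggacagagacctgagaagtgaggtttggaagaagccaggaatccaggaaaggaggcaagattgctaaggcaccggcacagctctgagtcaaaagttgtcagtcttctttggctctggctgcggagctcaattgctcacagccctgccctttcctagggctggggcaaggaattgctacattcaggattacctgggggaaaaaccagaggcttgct
All 10 genes had entries in the table, and for 9 of them a start lay within 50 bases of the 5' edge of the deposited exons, the exception being Slc6a19. Among the promoters of these 9 genes, the TATA letters occurred in 1 (Slc3a1), the HNF1 letters in 3 (Slc3a1, Slc6a20a and Slc36a1), the HNF4 letters in 1 (Slc3a1), the GATA letters in 2 (Slc3a1 and Slc7a7) and the CDX letters in 0. Over all 32851 promoters of the table the shares were 13.6%, 7.10%, 0.475%, 11.2% and 11.9% in the same order. In the Slc3a1 promoter the first TATA match runs into the GATA match, and the second lies in a stretch that holds the TATA letters on both strands. Slc15a1 and Slc6a14 held none of these letters in this window, and the same was so for Slc7a9, Slc7a8 and Slc1a1 at the edge of their exons. A further listed start of Slc7a9, 87 bases before that edge and so not counted here, held the GATA letters at 2 places in its window. A match of letters is a description and not a bound site, and the HNF1 letters occurred both in genes higher in small intestine and in Slc36a1.

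Slc15a1 encodes PEPT1, the proton-coupled carrier that takes short peptides from the lumen. It lies at chr14:121858843-121904476 (mm9, minus strand) and was counted over 23 exon blocks of 3123 bases. Its level was 174 RPKM in small intestine and 6.48 in colon by cDNA fragmentation (12222 and 502 reads), and 255 and 31.9 in the rRNA-depleted pair (1618 and 347 reads). Both small intestine values were above both colon values, with a ratio of small intestine to colon of 26.9 (24.6 to 29.4) by cDNA and 7.97 (7.09 to 8.97) in the rRNA-depleted pair. The intervals of the ratios do not overlap, and the cDNA ratio was 3.37 times the other. With start points in place of reads, where a position and strand counts once however many reads begin there, the log2 ratio fell from 4.73 to 3.04 by cDNA and from 2.99 to 2.09 in the rRNA-depleted pair. A gene has a limited number of positions, so start points fall short of reads most where reads are many. Large ratios can therefore shrink by start points, here and in the genes below, even where no molecule was copied. In the rRNA-depleted small intestine library, however, the 1618 reads of Slc15a1 had 458 start points in 3123 exon bases. Most positions there held no read start, and how much of the fall comes from copied reads was not tested. Of the exon blocks with at least 10 reads in the pair, 21 of 21 by cDNA and 17 of 17 in the rRNA-depleted pair favoured small intestine. The blocks divide the same reads as the ratio, here and in the genes below, so such tallies are a description only. In rank, Slc15a1 stood above 96.6% and 98.7% of the genes with a read in the small intestine libraries, and above 63.5% and 84.8% of those in the colon libraries. In the rRNA-depleted small intestine library 109 of its 1618 reads began at the same position.

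The 3 genes with the profile nearest to Slc15a1 over the 4 libraries were Maf, Slc25a15 and Naaladl1, at distances of 0.71, 0.82 and 0.85 on the log2 scale among 2356 genes of like level. Maf had 72.4, 1.97, 148 and 10.4 RPKM in the small intestine and colon libraries by cDNA and then in the rRNA-depleted ones. The log2 ratios of Slc25a15 were 3.58 and 2.87 and those of Naaladl1 4.57 and 3.68. With 4 libraries, this likeness is a description only.

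Slc6a19 and Slc6a20a are sodium-coupled carriers of the brush border, the former (B0AT1) for neutral amino acids and the latter for proline and other imino acids. Slc6a19 (chr13:73818605-73838143, minus strand) had 8308 reads in small intestine and 25 in colon by cDNA, or 151 and 0.413 RPKM, and 1312 and 22 reads in the rRNA-depleted pair, or 264 and 2.59 RPKM. It was the gene of the group with the largest ratio by cDNA, 367 (248 to 567), and reached 102 (67.03 to 163) in the rRNA-depleted pair. All 12 of its exon blocks were higher in small intestine in both protocols. Its few colon reads were spread, with 25 start points for 25 reads by cDNA. With start points in place of reads its log2 ratio went from 8.21 to 6.83 by cDNA and from 6.62 to 5.23 in the rRNA-depleted pair.

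Slc6a20a (chr9:123546025-123587950, minus strand) stood at 20.8 RPKM in small intestine and at 0.958 in colon by cDNA, and 46.4 and 1.97 in the rRNA-depleted pair. The ratios, 21.7 (16.1 to 30.0) and 23.5 (13.4 to 45.1), had overlapping intervals. These values are uncertain in 3 ways. The gene has a close copy, Slc6a20b, from which reads that fit both were removed, and its block of 163 bases at chr9:123564121-123564283 held 0 reads in all 4 libraries. Its last block of 239 bases also belongs to a non-coding gene in the annotation, and held 360 of the 886 cDNA reads in small intestine. In the rRNA-depleted small intestine library, 40 of 179 reads (22.3%) began at 1 position, and with start points counted in place of reads the log2 ratio was 3.44, down from 4.49.

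**Figure D2:**
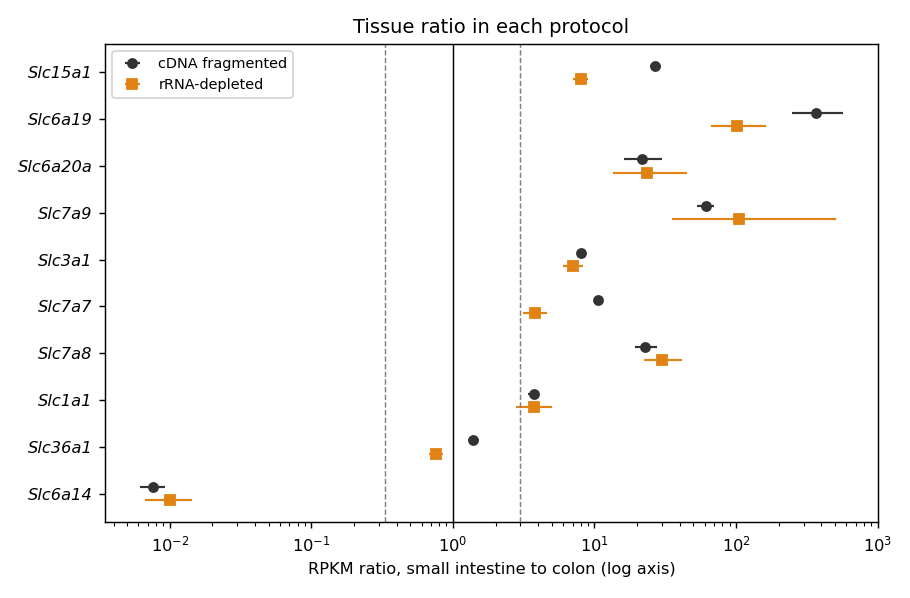
Ratio of RPKM in small intestine to RPKM in colon (log axis) of the 10 transporters, with exact conditional binomial intervals of counting error, in the cDNA fragmented pair (black) and the rRNA-depleted pair (orange). The solid line is a ratio of 1 and dashed lines mark 3-fold in each direction. The 2 protocols overlap for Slc6a20a, Slc7a9, Slc3a1, Slc7a8, Slc1a1 and Slc6a14, and stand apart for Slc15a1, Slc6a19, Slc7a7 and Slc36a1.

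Slc7a9 and Slc3a1 encode the light and heavy chains of the brush border exchanger for cystine and dibasic amino acids, whose loss causes cystinuria. Slc7a9 (chr7:36234198-36251018, plus strand) stood at 282 RPKM in small intestine and at 4.62 in colon by cDNA, with 12004 and 217 reads. In the rRNA-depleted pair it had 47.5 and 0.455 RPKM, which rest on 183 and 3 reads. The ratios were 61.0 (53.3 to 70.1) by cDNA and 104 (35.1 to 510) in the rRNA-depleted pair, where the width of the interval comes from the 3 colon reads. By start points the log2 ratio dropped from 5.90 to 3.55 by cDNA, below that of the rRNA-depleted pair, which was 6.42 by reads and 6.08 by start points. The 12004 reads had 2214 start points in 1894 exon bases, too few positions for each read to have its own. It was the highest of the 10 genes in small intestine by cDNA and the lowest in colon in the rRNA-depleted pair.

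Slc3a1 (chr17:85427687-85463583, plus strand) had 196 and 24.4 RPKM by cDNA and 174 and 24.7 in the rRNA-depleted pair, so both tissue levels lay close together between the protocols. Its ratios were 8.05 (7.61 to 8.52) and 7.06 (6.04 to 8.29), and by start points its log2 ratios were 1.72 and 1.89 instead of 3.004 and 2.81. In colon the heavy chain therefore stood above its light chain in both protocols (24.4 against 4.62 and 24.7 against 0.455 RPKM). In small intestine the light chain was the higher by cDNA (282 against 196 RPKM) and the lower in the rRNA-depleted library (47.5 against 174 RPKM). The last 608 bases of Slc3a1 overlap the end of Prepl, which lies on the other strand. There, the directional libraries had 84 reads on the strand of Slc3a1 and 6 on that of Prepl in small intestine, and 31 and 27 in colon. With shared bases left out, the log2 ratio of Slc3a1 rose from 3.004 to 3.29 by cDNA and from 2.81 to 3.15 in the rRNA-depleted pair.

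Slc7a7 and Slc7a8 encode light chains of the basolateral membrane (y+LAT1 for dibasic and LAT2 for neutral amino acids), both of which pair with the heavy chain of Slc3a2. Slc7a7 (chr14:54989128-55036536, minus strand) stood at 230 RPKM in small intestine and at 21.6 in colon by cDNA, and 78.1 and 20.6 in the rRNA-depleted pair. The colon levels had overlapping intervals (20.4 to 22.8 and 17.5 to 24.0), whereas the small intestine levels did not (226 to 234 and 70.2 to 86.5). The ratio was thus 10.7 (10.0 to 11.3) by cDNA and 3.80 (3.15 to 4.59) in the rRNA-depleted pair. With start points in place of reads the latter fell to 2.69. It was 2.61 once 1 RPKM was added to the divisor, below the 3-fold rule. By cDNA the call was kept with start points, while the log2 ratio fell from 3.41 to 1.72. An overlap of 226 bases with Oxa1l at the 3' end moved the log2 ratios by little, to 3.44 and 1.94 without it.

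The reads of Slc7a7 did not begin at the first deposited exon. By cDNA the 3 blocks at the 5' end held 0, 1 and 3 small intestine reads and 0, 1 and 5 colon reads, and the fourth block, chr14:55027340-55027885, held 2946 and 365. In the rRNA-depleted libraries these blocks held 0 small intestine reads and 1 colon read, against 95 and 43 in the fourth. RefSeq lists starts between the third block and the fourth, at chr14:55029040 and chr14:55028309, outside the deposited exons. The promoter of the latter, which is nearer to the fourth block, is shown beside that of the start at the first block for this reason, with capitals as before.
Slc7a7, start before the fourth block, chr14:55028260-55028559, minus strand: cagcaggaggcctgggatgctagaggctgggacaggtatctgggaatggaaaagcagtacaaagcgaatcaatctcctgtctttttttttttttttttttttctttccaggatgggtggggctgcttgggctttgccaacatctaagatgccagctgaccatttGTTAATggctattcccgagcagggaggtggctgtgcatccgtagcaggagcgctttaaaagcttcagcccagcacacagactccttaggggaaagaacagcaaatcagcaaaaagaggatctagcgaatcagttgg
Slc7a7, start at the first block, chr14:55036490-55036789, minus strand: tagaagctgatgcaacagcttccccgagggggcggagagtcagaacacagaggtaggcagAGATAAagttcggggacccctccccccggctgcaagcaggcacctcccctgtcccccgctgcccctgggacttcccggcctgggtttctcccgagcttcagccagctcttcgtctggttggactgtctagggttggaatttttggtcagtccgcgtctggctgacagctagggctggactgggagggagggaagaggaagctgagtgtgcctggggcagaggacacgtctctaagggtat
The former holds the HNF1 letters once and the latter the GATA letters once. Which of these starts is used in these tissues was not tested, since reads outside the deposited exons were not analysed here.

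Slc7a8 (chr14:55341052-55400723, minus strand) had 31.2 and 1.36 RPKM by cDNA and 101 and 3.35 in the rRNA-depleted pair. Both tissue levels were higher in the rRNA-depleted libraries, and the ratios, 22.9 (19.3 to 27.4) and 30.0 (22.4 to 41.2), had overlapping intervals. By start points the log2 ratio in the rRNA-depleted pair was 4.10 instead of 4.87. All 11 blocks were higher in small intestine in each protocol. By cDNA 78.0% of its reads in small intestine lay 3' of the midpoint of its exon length, against 59.6% in the rRNA-depleted library.

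Slc1a1 encodes EAAC1, a carrier of glutamate and aspartate. The gene (chr19:28909656-28988450, plus strand) stood at 26.1 RPKM in small intestine and at 6.99 in colon by cDNA, and 20.01 and 5.35 in the rRNA-depleted pair. Its ratios, 3.73 (3.41 to 4.07) and 3.74 (2.80 to 5.05), differed least between the protocols within the group. They were also the smallest of the 8 genes called higher in small intestine, at 3.26 and 3.15 once 1 RPKM was added to the divisor. The call was lost with start points in place of reads in both protocols (2.90 and 2.66 on the same penalised scale), with the reads of Epcam and Cdh1 as library size in both (2.42 and 2.69), and with at most 1 color mismatch in the rRNA-depleted pair (2.94).

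Slc6a14 encodes ATB0,+, a sodium- and chloride-coupled carrier with a broad choice of neutral and cationic amino acids. It lies at chrX:21292026-21319481 (plus strand) and was counted over 14 blocks of 3430 bases. It had 98 reads in small intestine and 14232 in colon by cDNA, and 29 and 4931 in the rRNA-depleted pair. In RPKM these are 1.27 and 167, and 4.15 and 413, so both colon values were far above both small intestine values. The ratio of colon to small intestine was 132 (108 to 162) by cDNA and 99.5 (69.2 to 149) in the rRNA-depleted pair, and all 14 blocks were higher in colon in each. With start points the log2 ratio of small intestine to colon was -5.14 instead of -6.93 by cDNA and -4.41 instead of -6.60 in the rRNA-depleted pair. In the directional colon library all 4931 reads lay on the strand of the gene. Slc6a14 was the highest of the 10 genes in both colon libraries and the lowest in both small intestine libraries, and in the rRNA-depleted colon library it stood above 99.2% of all genes with a read.

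Slc6a14 also made up most of what the group summed to in colon. The summed level of the 10 genes was 1123 RPKM in small intestine and 241 in colon by cDNA, and 1029 and 556 in the rRNA-depleted pair. Slc6a14 gave 0.113% of the sum in small intestine and 69.4% in colon by cDNA, and 0.404% and 74.4% in the rRNA-depleted pair. Without it the colon sums were 73.6 and 142 RPKM. The nearest profiles were those of St6galnac6 and Nov, at distances of 1.07 and 1.15 among 1984 genes of like level. St6galnac6 had 0.447 and 191 RPKM by cDNA and 2.66 and 271 in the rRNA-depleted pair. Nov had 0.320 and 34.6 RPKM by cDNA and 1.87 and 243 in the rRNA-depleted pair.

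Slc36a1 encodes PAT1, a proton-coupled carrier of small amino acids found at the brush border and in lysosomes. The gene (chr11:55017842-55049832, plus strand) stood at 9.53 RPKM in small intestine and at 6.82 in colon by cDNA (1130 and 892 reads), and 39.2 and 51.5 in the rRNA-depleted pair (421 and 944 reads). The level was higher in small intestine by cDNA and higher in colon in the rRNA-depleted pair, with ratios of small intestine to colon of 1.40 (1.28 to 1.53) and 0.762 (0.678 to 0.856). The last block, 3964 bases of the 5274, held 1080 and 879 of the cDNA reads and 353 and 754 of those in the rRNA-depleted pair. The ratio also changed along the gene. In the 5' part up to the midpoint it was 3.38 (2.40 to 4.85) by cDNA, from 138 and 45 reads, and 0.516 (0.419 to 0.633) in the rRNA-depleted pair, from 123 and 407 reads. In the 3' part it was 1.29 (1.18 to 1.42) and 0.948 (0.820 to 1.09). Slc36a1 is thus the gene of the group for which the tissue direction differed between the pairs of libraries. These pairs also differed in sex-linked and pancreatic reads, so the protocol cannot be told apart from the samples.

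The position of reads along the genes differed between the protocols in several of the 10 genes. Of the Slc36a1 reads by cDNA, 87.8% (85.7% to 89.6%, Wilson) lay 3' of the midpoint in small intestine and 95.0% (93.3% to 96.2%) did so in colon, against 70.8% (66.3% to 74.9%) and 56.9% (53.7% to 60.0%) in the rRNA-depleted libraries. For Slc3a1 the shares were 63.5% and 72.5% by cDNA and 32.8% and 42.4% in the rRNA-depleted libraries. For Slc15a1 they were 63.1% and 68.3% by cDNA and 60.4% and 54.5% in the rRNA-depleted libraries, and its ratio was larger by cDNA in both parts of the gene. Split at the midpoint, its ratio was 31.3 and 24.8 by cDNA and 6.92 and 8.84 in the rRNA-depleted pair, from 5' to 3'. In the other direction, 74.9% (68.1% to 80.6%) of the 183 Slc7a9 reads lay 3' of the midpoint in the rRNA-depleted small intestine library, against 60.7% by cDNA. The first decile of Slc7a9 held 0.308% of its reads in small intestine by cDNA and 0 of 183 in the rRNA-depleted library, which allows up to 3 reads.

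**Figure D3:**
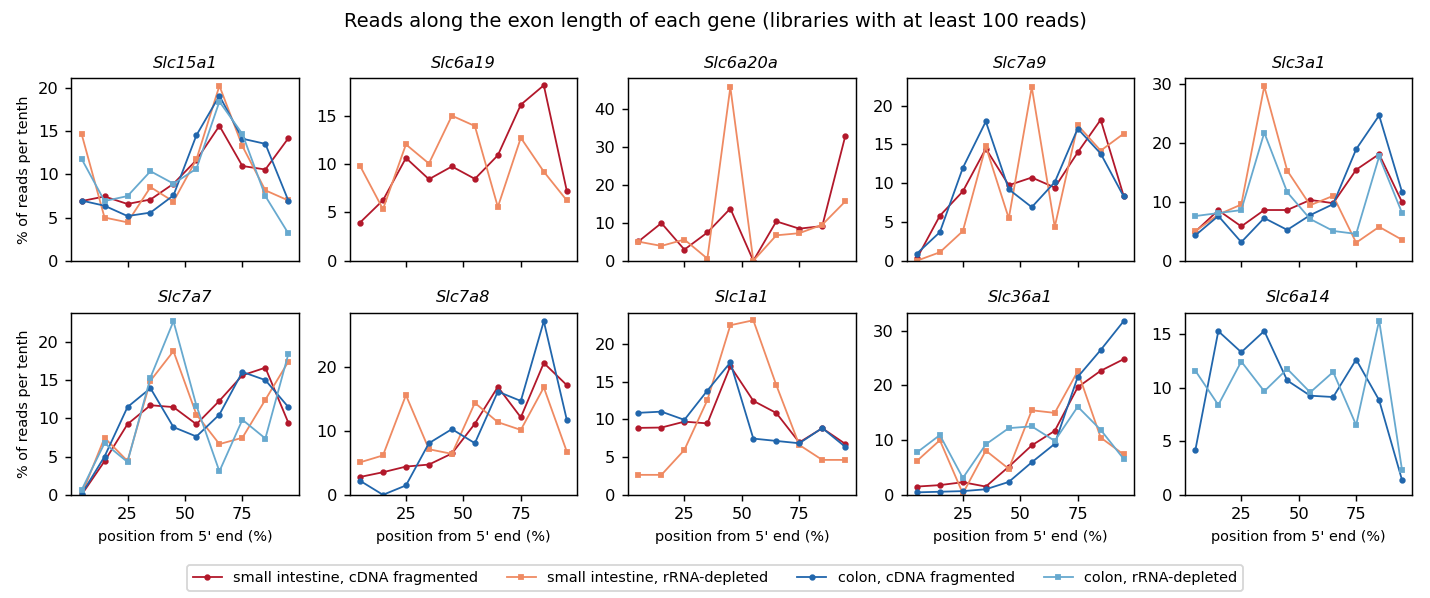
Share of the reads of each transporter (%) that began in each decile of its exon length, from the 5' to the 3' end, in libraries with at least 100 reads of the gene. Slc36a1 reads gather at the 3' end in both cDNA fragmented libraries, with 24.8% and 31.7% in the last decile, against 7.36% and 6.57% in the rRNA-depleted ones. The first decile of Slc7a7 is nearly empty in every library shown.

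When the genes were ordered by level, no counting interval overlapped that of the next gene in small intestine by cDNA. The order ran from Slc7a9 (282 RPKM) through Slc7a7, Slc3a1, Slc15a1 and Slc6a19 (151) down to Slc7a8 (31.2), Slc1a1, Slc6a20a, Slc36a1 and Slc6a14. Slc3a1 (196 RPKM) held 3855 of its 10187 reads there in the 608 bases shared with Prepl. Its place above Slc15a1 (174 RPKM) thus depends on how these bases are counted. In the rRNA-depleted small intestine library Slc6a19 (264 RPKM) and Slc15a1 (255) came first and could not be told apart, followed by Slc3a1, Slc7a8 and Slc7a7. Slc7a9, Slc6a20a and Slc36a1 (47.5, 46.4 and 39.2 RPKM) overlapped each with the next. In colon Slc6a14 led in both protocols. It was followed by Slc3a1 and Slc7a7 by cDNA, and by Slc36a1 and Slc15a1 in the rRNA-depleted library. Slc1a1, Slc36a1 and Slc15a1 (6.99, 6.82 and 6.48 RPKM) overlapped each with the next by cDNA, as did Slc7a8 (1.36 RPKM) with Slc6a20a (0.958). So did Slc3a1 with Slc7a7 and the genes from Slc1a1 down to Slc7a9 in the rRNA-depleted library.

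Of 38 further peptide and amino acid carriers, 31 had at least 20 reads by cDNA, of which 3 passed the rule towards small intestine and 1 towards colon, where the rule called 3.14% and 3.69% of all genes. In the rRNA-depleted pair 24 had as many, with 3 passing towards small intestine and 3 towards colon, beside 4.32% and 7.77% of all genes. The other 27 and 18 were called in neither direction. Their median log2 ratios were -0.41 and -0.75, close to or below the -0.37 and -0.40 of all genes with at least 20 reads. In both protocols Slc3a2, Slc16a10 and Slc43a2 passed the rule towards small intestine and Slc1a5 towards colon, and 7 had under 20 reads in both pairs.

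Of the 3 genes towards small intestine, Slc3a2, the heavy chain of Slc7a7 and Slc7a8, had 34.1 and 8.78 RPKM by cDNA and 86.5 and 19.1 in the rRNA-depleted pair, ratios of 3.89 (3.56 to 4.25) and 4.52 (3.83 to 5.35). In small intestine Slc7a7 was above it by cDNA (230 against 34.1 RPKM) and close to it in the rRNA-depleted library (78.1 against 86.5 RPKM). Slc16a10, which lets aromatic amino acids leave the cell, had 19.2 and 0.640 RPKM by cDNA and 62.5 and 2.85 in the rRNA-depleted pair, ratios of 30.0 (24.7 to 36.9) and 21.9 (17.02 to 28.7). Slc43a2 (LAT4), a uniporter of large neutral amino acids, had 8.52 and 0.390 RPKM by cDNA and 144 and 5.16 in the rRNA-depleted pair, ratios of 21.8 (16.0 to 30.5) and 28.0 (22.2 to 35.6). Its level in small intestine thus differed widely between the protocols, whereas the ratio did not.

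Close relatives of the 10 genes behaved in their own ways. Slc1a5, the neutral amino acid exchanger ASCT2, stood at 7.14 RPKM in small intestine and at 44.8 in colon by cDNA, and 13.4 and 53.5 in the rRNA-depleted pair. Its ratios of colon to small intestine were 6.27 (5.68 to 6.95) and 4.002 (3.14 to 5.17). Slc15a2, the other peptide carrier at plasma membranes (PEPT2), was low throughout, at 0.149 and 3.21 RPKM by cDNA and 1.41 and 3.09 in the rRNA-depleted pair. Its ratios of colon to small intestine were 21.6 (12.7 to 40.0), from 334 and 14 reads, and 2.19 (1.14 to 4.56). It was called in neither, since by cDNA the ratio was 2.80 once 1 RPKM was added to the divisor. Slc6a18, the relative of Slc6a19 known from kidney, had 11 reads in small intestine and 0 in colon by cDNA, and 3 and 0 in the rRNA-depleted pair. Slc6a20b, the copy of Slc6a20a, had 15 and 2 reads and 10 and 5 reads. These last counts are too low for a comparison and share the loss of reads that fit both copies.

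Tmem27, which Slc6a19 needs at the membrane in kidney, had 10 reads in small intestine by cDNA and 0 in the other 3 libraries.

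**Figure D4:**
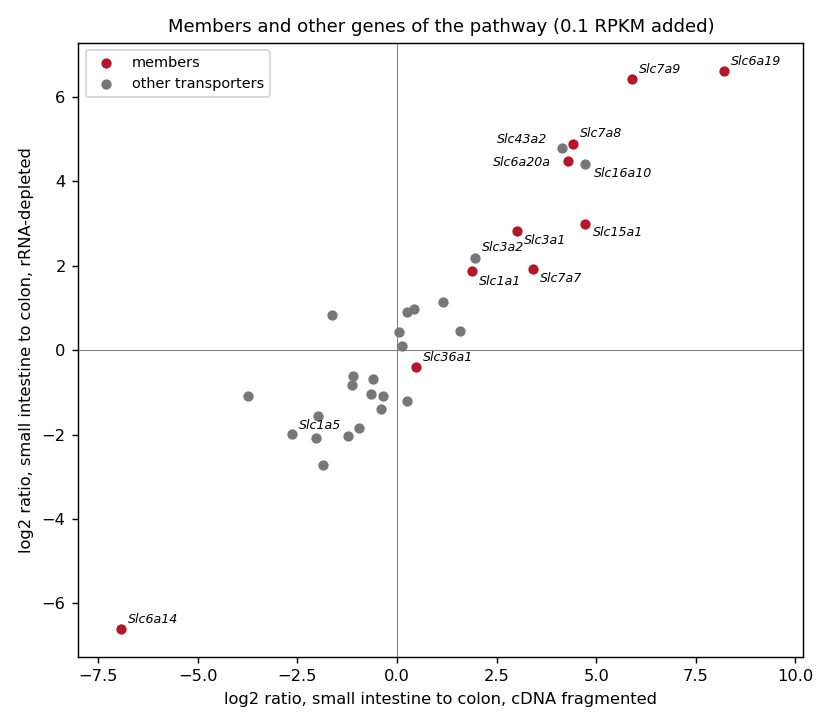
Log2 ratio of RPKM in small intestine to RPKM in colon (0.1 RPKM added) by cDNA fragmentation (x axis) and in the rRNA-depleted pair (y axis), for the 10 transporters (red) and further carriers (grey) with at least 20 reads in both pairs. The 8 genes called higher in small intestine lie at the upper right, from Slc1a1 (1.88 and 1.88) to Slc6a19, Slc6a14 lies alone at the lower left (-6.93 and -6.60) and Slc36a1 lies near the origin. Most grey points lie between -3 and 2 on both axes.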

How the data were processed

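Reads were SOLiD reads of 35 colors. In the deposited matching the authors had compared them with RefSeq exons of mm9 and exon-exon junctions with up to 3 color mismatches and kept unique placements. The deposited files hold these placements with numbers of mismatches, and reports with read counts, and the tables of exons hold positions. Normalized values were not used here.

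Reads were counted here on exon blocks of 21554 genes, whose names came from GENCODE M1 by position, and a read could begin up to 3 bases outside its block. A base that exons of more than 1 coding gene cover was counted for each of them. RPKM was calculated per 1000000 uniquely placed reads. The tissue rule (3-fold, 1 RPKM added to the divisor) follows the study and was applied to all genes with at least 20 reads in the pair. Poisson intervals of levels and conditional binomial intervals of ratios are exact, and shares have Wilson intervals. Genes named were the 10 transporters, further carriers past the rule the same way in both protocols, Slc3a2, Slc6a18, Slc6a20b, Slc16a10, Slc15a2 and Tmem27 whatever their values, and the 3 genes nearest in profile to Slc15a1 and to Slc6a14, taken among genes within 4-fold in mean RPKM by distance of centred log2 values. Some genes that this rule names are not reported here. Members and lists were chosen with earlier results of these data known. Alternatives are given in the closing section. The 3-fold rule and the ratio intervals were tried on simulated independent counts. These hold no copied reads, so the trial does not show how the intervals behave where reads are copies. Python 3.11.15, numpy 2.4.6, pandas 2.3.3 and scipy 1.17.1 were used.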

Additional observations from a re-analysis of the deposited data

Results flagged for a closer look

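Slc36a1 was the transporter whose ratio of small intestine to colon lay on opposite sides of 1 in the 2 protocols, at 1.40 in the cDNA fragmented pair and 0.762 in the rRNA-depleted pair. With 1 library per tissue and protocol, the difference between the protocols was not tested. The groups held too few libraries for a search for samples far from the others.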

How the results depend on the processing

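No paired analysis was possible because each group holds 1 library and the labels carry no replicate numbers. The study names shared individuals for both tissues, but which of these libraries share mice is not given in the sources used here. The sex-linked reads of the cDNA pair given above are not those of tissues from the same mice. A fit of tissue with the protocol as a block, which would take the 2 protocols as repeats of a tissue, was not run. With 1 library in each group, no library could be left out within a group. In 210 alternative values of the log2 ratios of the 10 genes, 0 called ratios changed direction, and 45 moved more than 0.05 beyond their counting interval (or, for the parts 5' and 3' of the midpoint, by 0.5 or more). The number of genes higher in small intestine was 7 or 8 by cDNA and 6 to 8 in the rRNA-depleted pair, and Slc1a1 and Slc7a7 were the genes lost. The median log2 ratio by cDNA moved from 3.86 to 4.25 with median-of-ratios size factors, 2.38 with start points in place of reads, 3.42 with 1 RPKM added and 3.41 with the reads of Epcam and Cdh1 as library size, an alternative added after the data had been seen, as were the parts 5' and 3' of the midpoint. In the rRNA-depleted pair it moved from 2.90 to 1.99 with start points, which count a position once however many reads begin there. Positions are limited in number, so start points can lower large ratios also where no molecule was copied. How much of these falls comes from copied reads was not tested. Median-of-ratios scaling moved the median of all genes with at least 20 reads from -0.37 to 0.00 by cDNA and from -0.40 to -0.07 in the rRNA-depleted pair, so ratios near 1 depend on the scaling, as does the balance of all genes called towards each tissue given above. The log2 ratio of Slc36a1 ranged from 0.03 to 0.88 by cDNA and from -0.63 to -0.06 in the rRNA-depleted pair over the scalings and counts tried. The number of all genes called higher in colon by cDNA, 535, became 355 with median-of-ratios, 1272 with 0.1 RPKM in the divisor and 1014 with Epcam and Cdh1, and in the rRNA-depleted pair 943 became 609 and 1641 with the first and second of these. Depth limits Slc7a9, Slc6a20a and Slc6a19 in the rRNA-depleted colon library, with 3, 13 and 22 reads.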
